A study of Mus musculus with 48 samples.

Results

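The growth of the transcriptional response to FOXD3 loss between 24 and 32 h was examined in 8 of the 48 libraries of the series, all from cycling mouse embryonic stem cells (ESCs) of the inducible knockout line FOXD3-iKO grown in L2i medium. They form 4 groups of 2 libraries: 4-hydroxytamoxifen (4HT) for 32 h, ethanol (EtOH, the solvent) for 32 h, 4HT for 24 h and EtOH for 24 h. Newly made RNA was labelled with 4-thiouridine (4SU) for 30 min before it was extracted and sequenced. The quantity of interest was the response (log2 of 4HT over EtOH) at 32 h less the response at 24 h. The same line after 8 and 14 h of treatment gave 8 more libraries of the same table, synchronized FOXD3-iKO cells gave 24 and OCT4-tetOff cells gave 8. The labels do not say what drives the recombinase or whether the line is 1 clone, and not that replicates were separate cultures, so p-values measure a spread that may be technical. In this series 4HT was given only to FOXD3-iKO cells. Effects of 4HT or of the recombinase therefore cannot be told apart from those of FOXD3 loss.

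FOXD3 is a forkhead transcription factor of pluripotent cells and of the neural crest, and both repression and activation of its targets have been described. Its loss in ESCs has been linked to differentiation and to cell death. The tumour suppressor p53, a transcription factor, raises genes of growth arrest, apoptosis and its own negative control, among them Mdm2, whose product marks p53 for degradation. A 4SU pulse follows RNA made within the pulse, so a level reports recent synthesis together with early decay.

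Foxd3 itself was low at both times. It had 2.45 and 1.43 CPM (counts scaled to library size with TMM factors) in 4HT libraries at 32 h, against 5.05 and 6.87 in EtOH libraries. The 24 h levels were 3.31 and 3.37 CPM in 4HT libraries, against 8.45 and 9.99 in EtOH libraries. The groups did not overlap at either time. The log2 response was -1.63 ± 0.28 at 32 h and -1.46 ± 0.24 at 24 h (standard error, SE), and the difference of -0.17 ± 0.38 was within its error (adjusted p = 0.979 in edgeR's quasi-likelihood test). The deleted part of the gene is not stated in the labels, so reads outside it may remain. Of 10 ESC markers, 9 passed the filter on low counts, and their summed level was 2463 to 2511 CPM of total counts in 4HT libraries at 32 h, 2369 to 2694 in EtOH libraries at 32 h, 2049 to 2237 in 4HT libraries at 24 h and 2082 to 2106 in EtOH libraries at 24 h. Sox2 was listed at 0 throughout, and its interval lies inside that of Sox2ot, so reads of that region cannot be told apart.

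The 8 libraries held 21827951 to 30406124 counts. A floor of 3 counts corresponds to 0.0987 to 0.137 CPM. The EtOH pair at 32 h stood apart. Its replicates had a median absolute log2 difference of 0.292 over 13529 genes with a mean log2 CPM above 1, against 0.0725 to 0.118 in the other 3 groups. Gm26917 and Gm42418, a pair of genes with very many reads, took 13.9% and 12.5% of the counts in 4HT libraries at 32 h, 14.3% in EtOH replicate 1 and 28% in EtOH replicate 2 at 32 h, and 28.96% to 31.8% in the 4 libraries of 24 h. Their part in the results was not tested beyond the values given. All changes are relative to the RNA of the same library.

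The response at 32 h was larger than at 24 h in most genes that had already moved, but no gene was called for the difference itself. Of 18707 genes tested with edgeR over all 16 cycling libraries, 0 had a Benjamini-Hochberg adjusted p under 0.05 for the difference (background 0%), 1395 had an unadjusted p under 0.05 (7.46%; 631 positive and 764 negative), and the smallest adjusted p was 0.0842. DESeq2 called 12 genes, all with a positive difference. At 32 h 1771 genes were called (9.47%), 913 higher and 858 lower in 4HT libraries. At 24 h 90 genes were called (0.481%), 75 higher (0.401%) and 15 lower (0.0802%). A fit without 1 library leaves 1 library in that group and takes the spread from the other groups. Leaving out either EtOH library of 32 h takes that pair's spread out of the estimate. Calls then change even in contrasts that do not use the pair, so counts of such fits, here and below, are not results of their own. Without EtOH replicate 1 of 32 h, edgeR called 681 genes for the difference (312 positive and 369 negative), with 4370 at 32 h and 226 at 24 h. Without EtOH replicate 2 of 32 h it called 3, namely Svop, P2rx7 and Plk2, with 226 at 24 h, and without any other of the 8 libraries it called 0. Without 4HT replicate 1 or 2 of 32 h, 617 and 597 genes were called at 32 h, with 53 and 48 at 24 h. Leaving out a library of 24 h left 2 to 14 genes called at that time.

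Of the 90 genes called at 24 h, 81 had a difference in the direction of their 24 h response, 70 of the 75 higher and 11 of the 15 lower. The difference had an unadjusted p under 0.05 in that direction in 46 genes and against it in 1 gene, Elobl. Their median response, taken in its own direction, was 1.11 at 32 h and 0.748 at 24 h on the log2 scale, after 0.155 at 8 h and 0.289 at 14 h. The median difference was 0.415, with a median half-width of the 95% interval of 0.390. Over all genes tested, the same medians were 0.103 at 32 h, 0.126 at 24 h and -0.0327 for the difference. Choosing genes for their 24 h response tends to inflate that response, which lowers the difference. At 32 h 86 of the 90 were called again. The other 4 were Sp9, Ccn1, Cckbr and Elobl, which are named for being the exceptions and all fall in the full class described next.

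**Figure D1:**
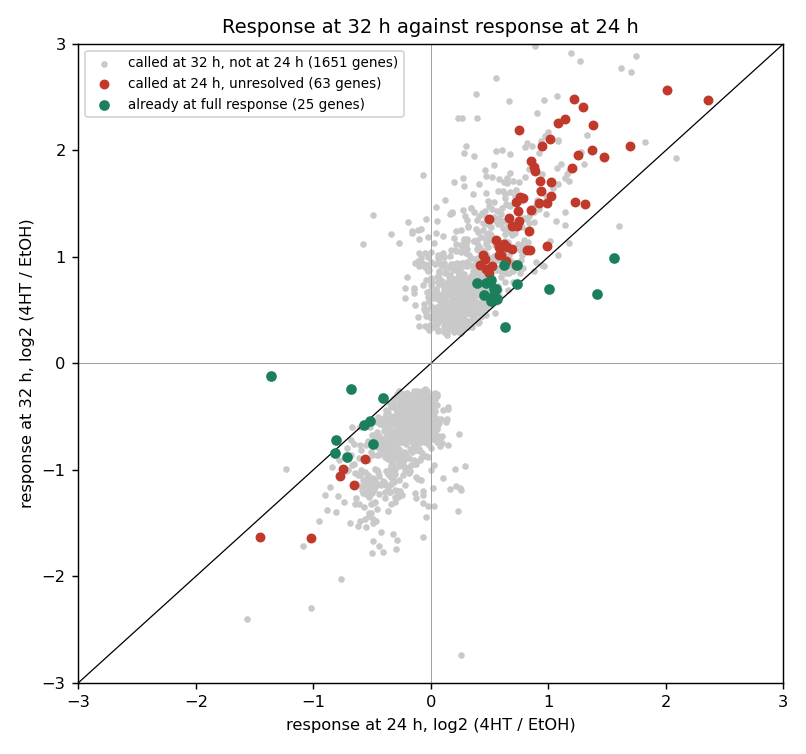
Response at 32 h (vertical) against response at 24 h (horizontal), both log2 of 4HT over EtOH, for genes called at either time with a mean log2 CPM of at least -1 (1739 genes). The diagonal marks equal responses: most red points, genes called at 24 h whose class is unresolved, lie farther from 0 at 32 h, and the 25 green points are the genes already at full response.

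Genes were separated into classes from these tests. A gene was to be called growing if it was called at 24 h with a called difference in the same direction, and new if it had an unadjusted p of 0.05 or more (or the opposite sign) at 24 h, was called at 32 h and had a called difference. Grown from below meant the same with an unadjusted p under 0.05 and the same sign at 24 h. It was at full response if it was called at 24 h, had no called difference and had a 95% interval that left out any growth of 1.5-fold or more. With 0 genes called for the difference, the growing, grown-from-below and new classes each held 0 genes in edgeR. DESeq2 gave 8, 3 and 1 in the same order, and 1109 genes at an unadjusted p under 0.05 for the difference. The full class held 25 genes, 16 higher and 9 lower, and 1750 called genes were unresolved. Without EtOH replicate 1 of 32 h, the growing class held 35 genes, the grown-from-below class 62, the new class 570 and the full class 109. Without EtOH replicate 2 these were 2, 1, 0 and 78, while the full class held 0 to 8 genes without any 1 of the other 6 libraries. The bound at 1.5-fold is 0.585 on the log2 scale. CT033772.2 at 0.584 and Cyp4f17 at 0.575 lay just inside it, and Mab21l3 at 0.601 and Rgma at 0.609 just outside.

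The 12 genes with the smallest p for the difference all had a positive one, 0.61 to 1.44 on the log2 scale, with adjusted p of 0.0842 to 0.255 in edgeR. These values chose the genes and are given as a description. The difference of each stayed positive in all 17 other settings, between 0.543 and 1.69. These settings refit the same libraries or all but 1 of them, so the stable sign of genes chosen this way is no further support. Svop, which encodes a transporter-like protein of synaptic vesicles, had 53.6 and 50.8 CPM in 4HT libraries at 32 h and 19.4 and 21.3 in EtOH libraries at 32 h. At 24 h it had 38.9 and 39.7 CPM in 4HT libraries and 27.1 and 28.6 in EtOH libraries. The gap between the arms widened from both sides, since the 4HT libraries were higher at 32 h (log2 change 0.41, adjusted p = 0.00747 in edgeR) and the EtOH libraries were lower (-0.45, adjusted p = 0.0119).

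P2rx7, an ion channel opened by extracellular ATP, had 28.5 and 27.9 CPM in 4HT libraries at 32 h and 12.1 and 13.9 in EtOH libraries at 32 h. At 24 h the 4HT libraries had 17.5 and 18.8 CPM and the EtOH libraries 15.0 and 15.2. Here the 4HT libraries moved, with a log2 change of 0.64 (adjusted p = 0.000864 in edgeR), and the EtOH change of -0.21 was not called (adjusted p = 0.179). Its response was 1.12 ± 0.09 at 32 h and 0.27 ± 0.09 at 24 h, and only the 32 h response was called.

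Scn3b encodes a beta subunit of voltage-gated sodium channels. It had 10.3 and 10.7 CPM in 4HT libraries at 32 h and 2.62 and 2.45 in EtOH libraries at 32 h, against 6.33 and 6.04 in 4HT libraries and 3.09 and 3.36 in EtOH libraries at 24 h. The 4 groups did not overlap. Its response was 2.05 ± 0.12 at 32 h and 0.94 ± 0.12 at 24 h.

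Neb, which encodes nebulin of the muscle thin filament, had the largest difference of the 12, 1.44 ± 0.23. It had 13.6 and 15.4 CPM in 4HT libraries at 32 h and 3.63 and 2.72 in EtOH libraries at 32 h. Its 24 h levels were 13.7 and 11.4 CPM in 4HT libraries and 7.26 and 7.62 in EtOH libraries. The 4HT libraries of 32 h overlapped those of 24 h, and the EtOH libraries of 32 h lay below those of 24 h (log2 change -1.23, adjusted p = 0.00313 in edgeR).

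Of the remaining 8, Lrmda, Zbtb7c, Slc5a1, Wdr35 and Arhgef33 resembled P2rx7: their 4HT change over 8 h was called, at 0.70 to 1.24, and their EtOH change was not. Slc5a1 is a sodium-glucose cotransporter, Wdr35 a subunit of the intraflagellar transport machinery of cilia and Zbtb7c a zinc-finger factor. Arntl2, a partner of CLOCK in the circadian clock, had an EtOH change of -0.58 that was called (adjusted p = 0.0138 in edgeR) and a 4HT change of 0.28 that was not (adjusted p = 0.0658). In Zfp365 and the phospholipase Plcd4 both changes were called. Over the 12 genes, 10 were called higher in the 4HT arm at 32 h than at 24 h and 5 were called lower in the EtOH arm, counts that the choice of genes largely fixes. Svop, P2rx7, Plcd4 and Arhgef33 overlap other named genes in the annotation.

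**Figure D2:**
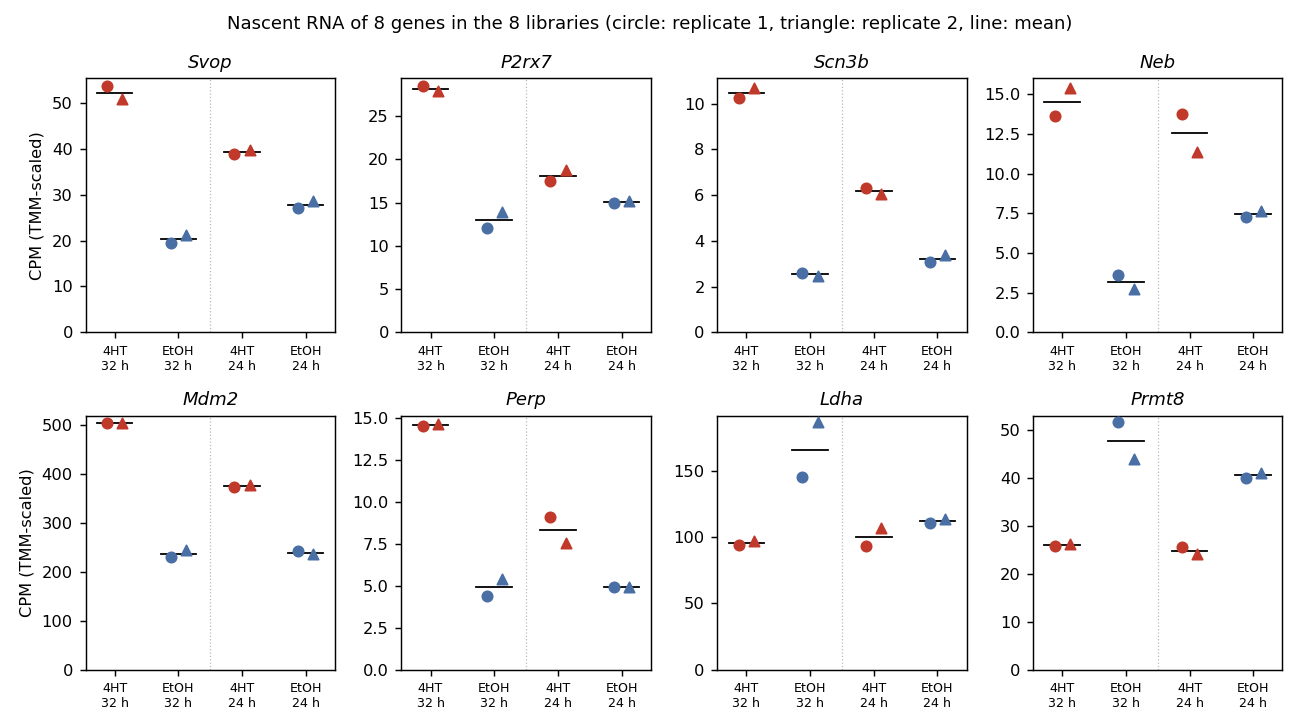
TMM-scaled CPM (vertical, from 0) of 8 genes in each of the 8 libraries, by arm and time (horizontal). Points are libraries (circle, replicate 1; triangle, replicate 2) and lines are group means: Svop parts in both arms, P2rx7, Scn3b, Mdm2 and Perp rise in 4HT, Neb falls in EtOH, Ldha is higher in EtOH at 32 h, and Prmt8 keeps its gap.

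Both arms of the experiment changed over these 8 h. Between 24 and 32 h, 2899 genes were called in the 4HT arm (15.5%), 1297 higher (6.93%) and 1602 lower (8.56%) at 32 h. In the EtOH arm 1006 genes were called (5.38%), 505 higher (2.7%) and 501 lower (2.68%), or 157 higher and 742 lower with total counts outside Gm26917 and Gm42418. With total counts in place of TMM factors the 4HT arm had 3509 higher and 725 lower, and with total counts outside Gm26917 and Gm42418 it had 604 higher and 2140 lower, so the balance of directions rests on the scaling. The 32 h response then had 1562 higher and 239 lower, or 802 higher and 289 lower. Total counts moved the median of all genes to 0.14 in the 4HT arm, 0.12 in the 32 h response and 0.11 in the difference, against -0.01, -0.05 and -0.02 with TMM factors. Among the 75 genes called higher at 24 h, the median change over 8 h was 0.27 in 4HT libraries and -0.18 in EtOH libraries, with 33 called higher in 4HT and 19 called lower in EtOH. Both comparisons share their libraries with the difference.

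Leaving out a library moved these counts as well. Without a 4HT library the 4HT arm had 388 to 903 genes called, and without EtOH replicate 1 or 2 of 32 h it had 5629 and 5626. The EtOH arm had 73 and 141 without EtOH replicate 1 or 2 of 24 h, and 4647 without EtOH replicate 2 of 32 h.

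The 25 genes at full response had a median 24 h response of 0.567 and a median 32 h response of 0.698 in their own direction, with a median difference of 0.042. Tfap2c, a factor of the AP-2 family known from trophectoderm and germ cells, had 61.9 and 65.7 CPM in 4HT libraries at 32 h and 30.9 and 45 in EtOH libraries at 32 h. At 24 h it had 50.3 and 55.1 CPM in 4HT libraries and 31.9 and 31.3 in EtOH libraries. The arms did not overlap at either time, and the response was 0.75 ± 0.13 at 32 h and 0.74 ± 0.13 at 24 h, with a difference of 0.01 (95% interval -0.38 to 0.40).

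Mobp, named for a myelin protein of oligodendrocytes, rose in both arms between the times. It had 22 and 20.4 CPM in 4HT libraries at 32 h and 13.0 and 13.1 in EtOH libraries at 32 h, against 8.63 and 9.06 in 4HT libraries and 4.38 and 4.45 in EtOH libraries at 24 h. All 4 groups stood apart. The log2 change over 8 h was 1.26 in 4HT libraries and 1.56 in EtOH libraries, both called, and the response was 0.70 ± 0.14 at 32 h and 1.0 ± 0.17 at 24 h.

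Crmp1, a neuronal cytoskeleton regulator whose interval overlaps Evc, did the same on the lower side. It rose by 0.81 in 4HT libraries and by 0.84 in EtOH libraries, both called in edgeR, while its response was -0.54 ± 0.09 at 32 h and -0.52 ± 0.10 at 24 h. Prmt8, a protein arginine methyltransferase, had 25.9 and 26.3 CPM in 4HT libraries at 32 h and 51.7 and 44 in EtOH libraries at 32 h. Its levels at 24 h were 25.6 and 24.1 CPM in 4HT libraries and 40.01 and 41.2 in EtOH libraries. The arms were apart at both times, and the 4 libraries with 4HT lay between 24.1 and 26.3 CPM. Ttn, which encodes the muscle protein titin, had responses of -0.85 ± 0.11 at 32 h and -0.82 ± 0.11 at 24 h, and a response of -0.36 at 8 h.

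Ccn1, a secreted matrix protein, was lower at 32 h in both arms, with log2 changes of -1.19 in 4HT libraries and -0.89 in EtOH libraries, both called. Its response was 0.34 ± 0.11 at 32 h (adjusted p = 0.0796 in edgeR) and 0.63 ± 0.11 at 24 h. Dgka, a diacylglycerol kinase, sat near the edge of the class with a difference of 0.31 ± 0.12. Plbd1, Dnajb5, Rap2b and Tsku on the higher side had differences of 0.11 to 0.19. Sult6b1, Aldh18a1, Gpt2 and Cckbr on the lower side ranged from -0.26 to 0.44. The class also took in genes whose 24 h response was not matched at 32 h, such as Elobl (-0.12 at 32 h, -1.36 at 24 h).

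**Figure D3:**
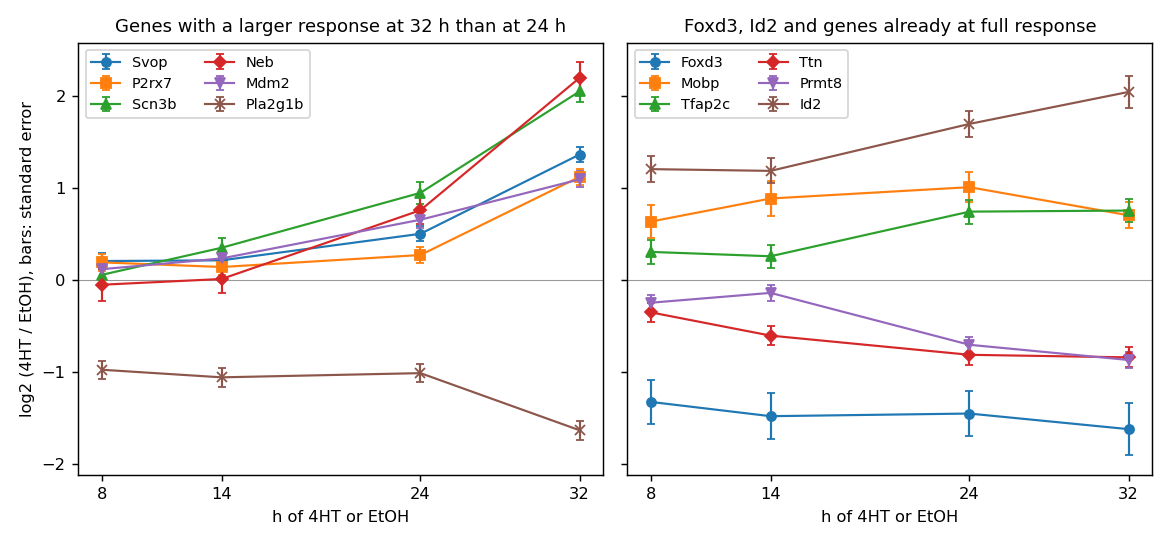
Response (log2 of 4HT over EtOH, with SE) at 8, 14, 24 and 32 h for 6 genes with a larger response at 32 h (left) and for Foxd3, Id2 and 4 genes at full response (right). Svop, P2rx7, Scn3b, Neb and Mdm2 lie within 0.4 of 0 at 8 and 14 h, while Pla2g1b, Foxd3, Id2 and Mobp are past 0.6 in size at 8 h.

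Scn3b had 0.05 at 8 h and 0.35 at 14 h, and P2rx7 0.19 and 0.14. Pla2g1b, a secreted phospholipase chosen after its values were seen, lay at -0.98 at 8 h, -1.06 at 14 h, -1.02 at 24 h and -1.64 at 32 h. It had 10.7 and 9.84 CPM in 4HT libraries at 32 h and 30.0 and 33.8 in EtOH libraries at 32 h, against 12.4 and 14.6 in 4HT libraries and 26.4 and 28.4 in EtOH libraries at 24 h. Id2, which blocks DNA binding by helix-loop-helix partners and is the gene with the smallest p at 24 h, had 1.2 at 8 h, 1.18 at 14 h, 1.69 at 24 h and 2.04 at 32 h. Its level was lower at 32 h in both arms, by a log2 change of -1.13 in 4HT libraries and -1.48 in EtOH libraries.

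Among 30 listed p53 targets, 16 were called higher and 0 lower at 32 h (53.3%, with 4.88% of all genes called higher), and 6 were called higher at 24 h (0.401% of all genes). For the difference 0 were called in edgeR, 2 in DESeq2, and 11 had an unadjusted p under 0.05, all positive, with 3.37% of all genes in that direction. The median response of the list was 0.46 at 32 h and 0.28 at 24 h, against -0.05 and -0.02 over all genes. Its median difference was 0.19, against -0.02 over all genes, and lay between 0.084 and 0.281 when a library was left out. Mdm2 and Trp53inp1, an apoptosis and autophagy regulator, were among the 12 genes DESeq2 called for the difference.

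Mdm2 had 504 and 505 CPM in 4HT libraries at 32 h and 230 and 244 in EtOH libraries at 32 h. At 24 h it had 373 and 377 CPM in 4HT libraries and 242 and 236 in EtOH libraries. The EtOH libraries were alike at both times and the 4HT libraries were higher at 32 h (log2 change 0.43, adjusted p = 0.00764 in edgeR). Its difference was 0.44 ± 0.12. Trp53inp1 had 522 and 529 CPM in 4HT libraries at 32 h and 258 and 262 in EtOH libraries at 32 h, with 414 and 404 in 4HT libraries and 279 and 259 in EtOH libraries at 24 h. The EtOH libraries of both times overlapped, and those of 4HT did not.

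Perp, a membrane protein of p53-dependent apoptosis, had 14.5 and 14.6 CPM in 4HT libraries at 32 h and 4.41 and 5.44 in EtOH libraries at 32 h, against 9.13 and 7.57 in 4HT libraries and 4.92 and 4.92 in EtOH libraries at 24 h. Its difference of 0.81 ± 0.19 came with a log2 change of 0.81 in 4HT libraries and 0.00 in EtOH libraries. Cd80, a ligand of T cell costimulation that is on the list as a p53 target, had 82.6 and 86.4 CPM in 4HT libraries at 32 h and 44.5 and 44.4 in EtOH libraries at 32 h, with 49.2 and 53.4 in 4HT libraries and 39.9 and 36.7 in EtOH libraries at 24 h. The 4 groups did not overlap. Pmaip1 (Noxa) and Fas, which promote apoptosis, had responses of 1.12 ± 0.15 and 2.51 ± 0.32 at 32 h, both called, and neither was called at 24 h. Fas had under 3 CPM in every library.

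Other listed targets are named here after their values were seen. Cdkn1a, the cell cycle inhibitor p21, had 186 and 178 CPM in 4HT libraries at 32 h and 156 and 215 in EtOH libraries at 32 h, with 215 and 235 in 4HT libraries and 187 and 198 in EtOH libraries at 24 h. The arms overlapped at 32 h, and its difference was -0.25 (95% interval -0.65 to 0.15). Bbc3 (Puma) was called higher at 32 h, with a response of 0.46 ± 0.13 at both times and a difference of 0.01. Bax and Phlda3 were called at neither time, with differences of -0.12 ± 0.19 and 0.03 ± 0.20. Btg2 and Plk2 were called at both times, with differences of 0.24 ± 0.19 and 0.55 ± 0.21, and Plk2 was called for the difference without EtOH replicate 2 of 32 h and with the share of Gm26917 and Gm42418 as a covariate. Trp53 itself had 174 and 175 CPM in 4HT libraries at 32 h and 172 and 210 in EtOH libraries at 32 h, so the arms overlapped. Of 19 tested regulators of p53, Trp73, a paralogue of p53 whose interval overlaps Trp73os, was called at both times, with a response of 1.52 ± 0.14 at 32 h and 0.73 ± 0.13 at 24 h. Its EtOH level was lower at 32 h (log2 change -0.57, adjusted p = 0.0352 in edgeR), and its 4HT change of 0.22 was not called.

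**Figure D4:**
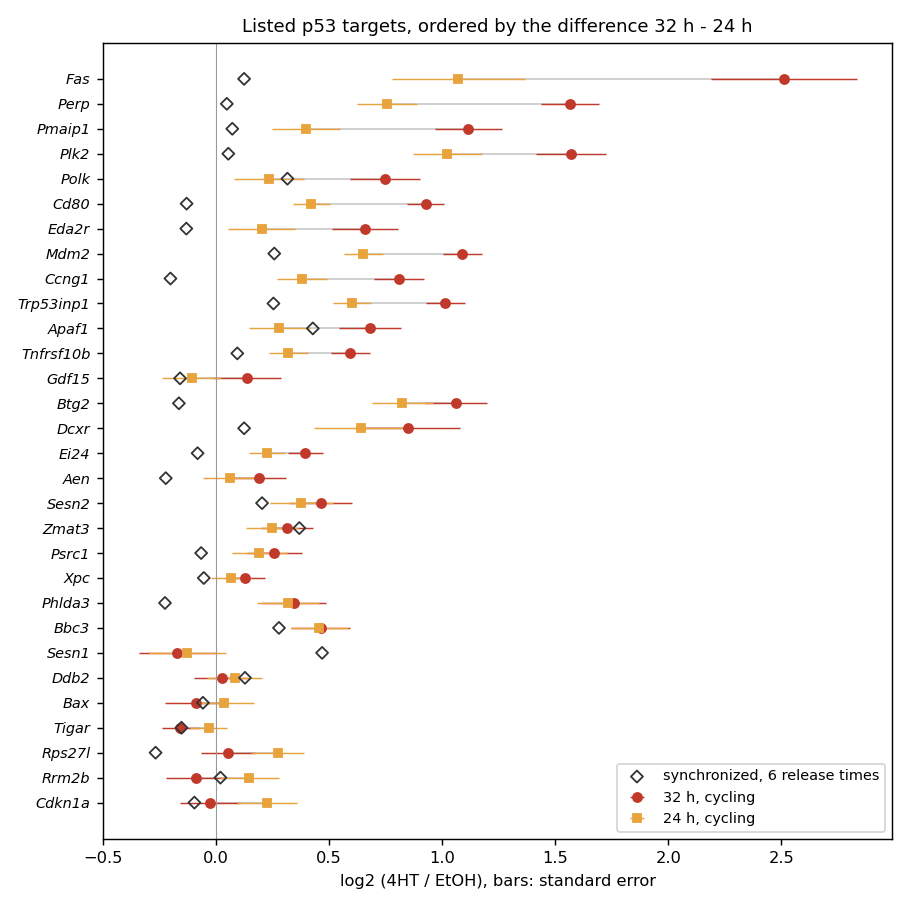
Response (log2 of 4HT over EtOH, horizontal, with SE) of the 30 listed p53 targets (vertical, ordered by the difference) at 32 h (circles), at 24 h (squares) and in synchronized cells over 6 release times (open diamonds, without error bars). Fas, Perp and Pmaip1 have the largest differences and Cdkn1a the lowest, and most diamonds lie left of the 32 h circles.

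Promoter sequences are shown for Mdm2 and Cdkn1a because these best known targets of p53 parted here, and for the other 3 genes called higher at 24 h whose promoter held a forkhead motif. Sequences are the 250 bases before the RefSeq start (build GRCm38.p6), 5' to 3' on the gene's strand. Capitals mark the forkhead motif TGTTTAC on either strand, or CATGNNNNNNCATG, a core of paired p53 half-sites, which reads alike on both strands.
Mdm2 (chr10:117710759-117711008, minus strand): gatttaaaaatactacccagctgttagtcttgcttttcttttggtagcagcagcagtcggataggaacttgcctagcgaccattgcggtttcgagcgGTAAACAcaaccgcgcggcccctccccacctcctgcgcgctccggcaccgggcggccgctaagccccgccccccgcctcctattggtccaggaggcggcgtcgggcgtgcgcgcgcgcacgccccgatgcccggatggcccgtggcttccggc
Cdkn1a (chr17:29090729-29090978, plus strand): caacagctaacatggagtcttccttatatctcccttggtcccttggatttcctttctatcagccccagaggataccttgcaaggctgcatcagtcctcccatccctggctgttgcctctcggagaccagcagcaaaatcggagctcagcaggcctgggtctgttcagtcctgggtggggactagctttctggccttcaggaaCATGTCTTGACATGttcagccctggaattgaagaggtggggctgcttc
Adam8 (chr7:139992563-139992812, minus strand): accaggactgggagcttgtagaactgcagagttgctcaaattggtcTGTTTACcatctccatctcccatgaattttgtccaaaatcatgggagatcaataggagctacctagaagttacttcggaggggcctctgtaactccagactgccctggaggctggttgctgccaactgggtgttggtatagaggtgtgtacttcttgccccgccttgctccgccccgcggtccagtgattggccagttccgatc
Anxa8 (chr14:34085729-34085978, plus strand): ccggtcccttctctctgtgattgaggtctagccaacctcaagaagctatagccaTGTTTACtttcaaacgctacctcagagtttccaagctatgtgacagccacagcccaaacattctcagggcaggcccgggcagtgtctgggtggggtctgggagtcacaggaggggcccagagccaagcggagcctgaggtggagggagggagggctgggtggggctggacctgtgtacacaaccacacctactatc
Ankrd65 (chr4:155790922-155791171, plus strand): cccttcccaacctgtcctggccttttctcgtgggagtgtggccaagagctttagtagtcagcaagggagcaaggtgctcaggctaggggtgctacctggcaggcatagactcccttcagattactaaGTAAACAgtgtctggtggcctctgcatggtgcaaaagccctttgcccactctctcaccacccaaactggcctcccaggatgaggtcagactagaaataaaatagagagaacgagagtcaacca

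Over 12916 promoters of tested genes, TGTTTAC on either strand occurred in 288 (2.23%) and CATGNNNNNNCATG in 36 (0.279%). Among genes called higher at 24 h the forkhead motif occurred in 4 of 49 promoters (8.16%) and the p53 core in 0. Among genes called higher at 32 h these were 19 (2.92%) and 7 (1.08%) of 651, and among genes called lower at 32 h 10 (1.75%) and 1 (0.175%) of 571. Of 22 p53 targets with a promoter sequence, 1 held the p53 core, Cdkn1a, and 2 the forkhead motif, Mdm2 and Eda2r. A match is a run of letters and not a bound site. The scan covered only the stretch before each RefSeq start described above. Introns and sequence farther upstream were not scanned. A gene without a match here, such as Mdm2 for the p53 core, may therefore hold one elsewhere. Adam8, Anxa8 and Ankrd65 had responses of 1.5, 2.3 and 1.52 at 32 h and 1.31, 1.14 and 1.22 at 24 h, and the Ankrd65 start lies 733 bases from the counted one.

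Glycolysis genes went the other way. Of 24 listed, 16 were called lower and 0 higher at 32 h (66.7%, with 4.59% of all genes called lower), and 0 were called at 24 h. For the difference 11 had an unadjusted p under 0.05, all negative, with 4.08% of all genes in that direction, and 0 were called in edgeR or DESeq2. The list's median difference was -0.28. Its median change over 8 h was -0.03 in 4HT libraries and 0.31 in EtOH libraries, and 8 members were called higher in the EtOH arm at 32 h than at 24 h, with 2.7% of all genes called so.

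Ldha, lactate dehydrogenase A, had 93.8 and 97.0 CPM in 4HT libraries at 32 h and 145 and 187 in EtOH libraries at 32 h. The values at 24 h were 93.7 and 107 CPM in 4HT libraries and 110 and 114 in EtOH libraries. The 4HT libraries overlapped between times, and the EtOH libraries of 32 h stood above the rest. Slc16a3, the lactate exporter MCT4, had 10.9 and 12.1 CPM in 4HT libraries at 32 h and 20.4 and 30.3 in EtOH libraries at 32 h, with 12 and 13.8 in 4HT libraries and 14.7 and 15.3 in EtOH libraries at 24 h. Its difference was -0.92 ± 0.22. Tpi1 and Pfkl, enzymes of the pathway, had differences of -0.79 ± 0.19 and -0.57 ± 0.17. Pfkl rose by 0.78 in the EtOH arm (adjusted p = 0.00405 in edgeR), while its 4HT change of 0.21 was not called. The spread of the EtOH pair is visible in each of these genes, and without EtOH replicate 1 of 32 h, the lower of the pair in Ldha, Slc16a3, Tpi1 and Pfkl, 6 of the list were called for the difference.

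**Figure D5:**
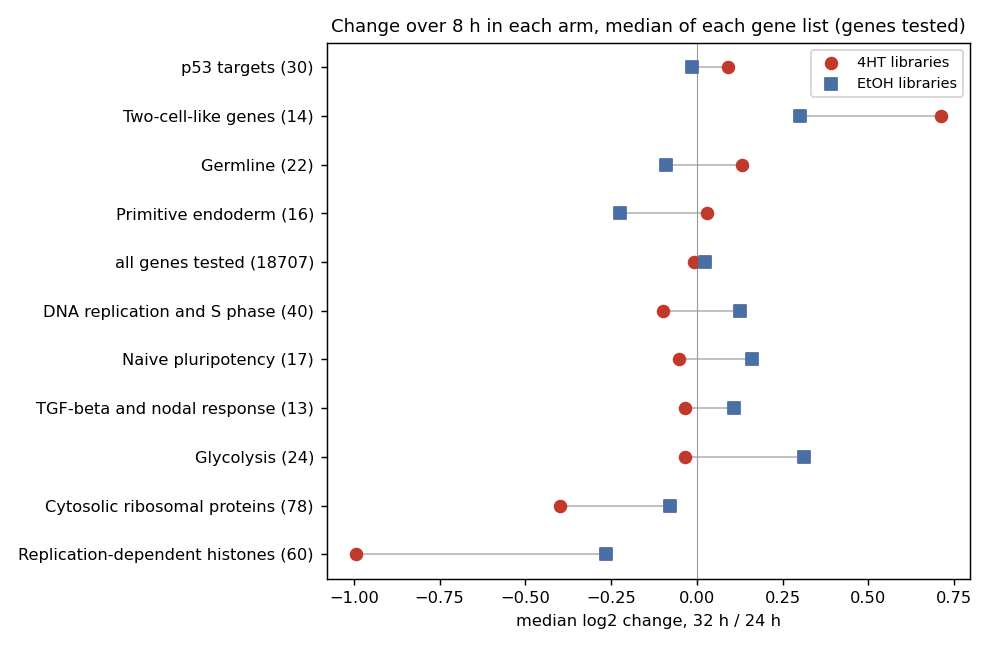
Median log2 change from 24 to 32 h (horizontal) in 4HT libraries (circles) and EtOH libraries (squares) for 10 gene lists and all genes (vertical, genes tested in brackets). For glycolysis the EtOH median lies at 0.31 and the 4HT median near 0; for histones the 4HT median lies at -0.99 and the EtOH median at -0.27.

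Lefty1 and Lefty2, secreted inhibitors of nodal and targets of its signalling, were called lower at 32 h. Lefty2 had 31.3 and 33.7 CPM in 4HT libraries at 32 h and 67.0 and 85.1 in EtOH libraries at 32 h, against 16.4 and 19.4 in 4HT libraries and 27.4 and 25.2 in EtOH libraries at 24 h. It rose in both arms, by 0.86 in 4HT libraries and by 1.53 in EtOH libraries, both called, and its difference was -0.67 ± 0.18. Of the 13 genes tested of the TGF-beta and nodal list, these 2 were called at 32 h (15.4%, with 4.59% of all genes called lower) and 0 at 24 h. Nodal itself had a response of 0.01 at 32 h. Of 17 naive pluripotency genes 3 were called lower at 32 h (17.6%), with a median difference of -0.19, and Nanog had a difference of -0.39 ± 0.19. The list of 40 replication genes had a median difference of -0.20, with 3 called lower at 32 h (7.5%, near the 4.59% of all genes), namely Ccne1, Lig1 and Gins2, which lies wholly inside Gse1.

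Histone genes were lower at 32 h as a group. Of 60 replication-dependent histone genes, 50 were called lower and 0 higher at 32 h (83.3%, with 4.59% of all genes called lower) and 0 at 24 h. For the difference 35 had an unadjusted p under 0.05, all negative, with 4.08% of all genes in that direction. The median response was -1.15 at 32 h and -0.48 at 24 h, and the median difference of -0.70 became -0.50 when a trend with gene length was taken out. Hist1h2ab had 7.64 and 6.82 CPM in 4HT libraries at 32 h and 19 and 24.5 in EtOH libraries at 32 h, against 20.02 and 17.9 in 4HT libraries and 26.9 and 23.9 in EtOH libraries at 24 h. The 4HT libraries of 32 h were lowest. Histone genes are near-identical copies, so counts of single members are uncertain. Of 78 genes of cytosolic ribosomal proteins, 41 were called lower at 32 h (52.6%, beside the same 4.59%) and 0 at 24 h. Their median change over 8 h was -0.40 in 4HT libraries and -0.08 in EtOH libraries. Their median difference was -0.35, -0.17 with the share of Gm26917 and Gm42418 as a covariate, and -0.50 and -0.19 without EtOH replicate 1 or 2 of 32 h.

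Several genes of other fates were called higher at 32 h. Among 16 primitive endoderm genes, 5 were called higher at 32 h (31.2%, with 4.88% of all genes called higher) and 0 at 24 h. Hnf4a and Gata6, transcription factors of endoderm, had responses of 1.07 ± 0.12 and 1.08 ± 0.14 at 32 h and 0.40 ± 0.12 and 0.42 ± 0.14 at 24 h. Gata6 had 7.73 and 8.76 CPM in 4HT libraries at 32 h and 4.00 and 3.79 in EtOH libraries at 32 h, with 5.82 and 6.46 in 4HT libraries and 4.51 and 4.69 in EtOH libraries at 24 h. The arms did not overlap at either time. Among 14 tested genes of the two-cell-like state, the calls were 7 higher at 32 h (50%, beside the same 4.88%) and 1 at 24 h, and the median difference was 0.55. Zscan4d had 3.16 and 3.49 CPM in 4HT libraries at 32 h and 1.33 and 1.47 in EtOH libraries at 32 h, and the Zscan4 and Usp17l genes are similar copies whose reads may be shared. Zfp750, the list member called at 24 h, lies wholly inside Tbcd. Of 22 germline genes 4 were called higher at 32 h (18.2%), among them Hormad1 of meiotic chromosomes and Piwil2 of the piRNA pathway. Other fate lists had negative median differences, -0.33 over 12 mesoderm genes, -0.30 over 11 neural crest genes, -0.21 over 6 neural genes and -0.16 over 14 trophectoderm genes, with 1, 1, 0 and 2 called higher at 32 h in that order and 0 called lower. The summed level of 14 blood and endothelial markers, of which Hbb-bt, Hba-a1 and Itgam were at 0, was 225 to 233 CPM in 4HT libraries at 32 h and 164 to 179 in EtOH libraries at 32 h, with 176 to 184 in 4HT libraries and 162 to 163 in EtOH libraries at 24 h. Pecam1 held 161 and 167 CPM of it in 4HT libraries and 126 and 121 in EtOH libraries at 32 h, and of 9 of these markers tested 1 was called higher at 32 h, Tek. The sum over 18 primitive endoderm genes was 627 to 635 CPM in 4HT libraries and 474 to 552 in EtOH libraries at 32 h, with 492 to 508 in 4HT libraries and 450 to 452 in EtOH libraries at 24 h. Feeder markers had 640 to 642 CPM in 4HT libraries and 614 to 627 in EtOH libraries at 32 h, of which Fn1 alone held 609 and 614 in 4HT libraries and 596 and 574 in EtOH libraries. All 7 feeder markers tested had a negative difference, and Thy1 and Vim were called lower at 32 h. The 9 ESC markers tested also all had a negative difference, and 0 of them were called at 32 h. The median difference was -0.12 over the feeder markers and -0.32 over the ESC markers. In these bulk samples fewer cells of a type and less RNA per cell cannot be told apart, and the part of these cell types in the results was not tested.

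Genes called only at 32 h were mostly on the same side at 24 h. Of the 1685 genes called at 32 h and not at 24 h, 1558 had a 24 h response of the same sign, 780 of the 840 higher and 778 of the 845 lower, and 627 had an unadjusted p under 0.05 at 24 h in that direction. The matching shares over all genes tested were not computed, so these counts stand without a background. In 18 genes, 9 higher and 9 lower, the 95% interval of the 24 h response ended below 0.25 of the 32 h response. Choosing genes at 32 h tends to inflate the 32 h response and thus the difference. Among genes of this kind named for the size of their difference, Lrmda had 11.6 and 10.6 CPM in 4HT libraries at 32 h and 4.50 and 3.17 in EtOH libraries at 32 h, against 5.24 and 4.2 in 4HT libraries and 4.58 and 3.98 in EtOH libraries at 24 h. Its arms overlapped at 24 h and not at 32 h. Ptprt, a receptor-type phosphatase, had 46.1 and 47.2 CPM in 4HT libraries at 32 h and 13.4 and 7.85 in EtOH libraries at 32 h, with 17.3 and 16.3 in 4HT libraries and 8.21 and 8.95 in EtOH libraries at 24 h. It rose by 1.47 in the 4HT arm (adjusted p = 0.00113 in edgeR). Tmem184a had the reverse course, with a 4HT change of -0.02 and an EtOH change of -1.20 (adjusted p = 0.00477). Shpk, Gria3, Ltb4r2 and Tshr had differences of 1.18 to 1.27, with Ltb4r2 and Tshr already called at 24 h. On the lower side Gas1, a membrane protein of growth arrest, Ccdc166, Mir293 and Ndufaf3 had differences of -1.41 to -1.18 at low counts. The Mir293 interval lies inside Nlrp12. These lower genes are short, from 80 bases (Mir293) to 2961 (Gas1), against 1139158 in Ptprt and 1036374 in Lrmda, though 3711 in Ltb4r2. When a trend with gene length was taken out, 30 genes were called for the difference. The part of length in these single genes was not tested.

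The same genes were then followed in synchronized FOXD3-iKO cells, which were released from a double thymidine block 24 h after 4HT or EtOH and collected at 0 to 5 h of release, 24 libraries with a 15 min pulse. Over the 6 release times 6565 of 17739 genes were called for 4HT against EtOH (37%; 18.6% higher and 18.4% lower). Of the 75 genes called higher at 24 h in cycling cells, 38 were called higher here and 5 lower, and of the 15 called lower, 13 were called lower and 0 higher. Of genes called at 32 h and not at 24 h, 331 of 832 higher ones were called higher and 32 lower, and 482 of 816 lower ones were called lower and 7 higher. The counts for the 2 higher groups fell to 20 and 138 with total counts alone. Without replicate 1 or 2 of each group the 4 counts were 24, 12, 199 and 223, or 25, 7, 175 and 204, in the order given.

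Genes at full response in cycling cells were called in the same direction in 11 of 16 higher (1 lower) and 8 of 9 lower cases. Tfap2c ranged from 22.6 to 38.4 CPM (median 28) in 4HT libraries and from 7.5 to 17.1 (median 11.7) in EtOH libraries, without overlap, and its response was 1.22 ± 0.07. Mobp had a response of 1.07 ± 0.08 and Prmt8 of -0.96 ± 0.07. Of the 12 genes with the smallest p for the difference, 6 were called higher and 0 lower, beside 18.6% and 18.4% of all genes. P2rx7 ranged from 61.4 to 89.7 CPM (median 74.0) in 4HT libraries and from 43.1 to 63.9 (median 52.8) in EtOH libraries, and its response was 0.45 ± 0.04. Wdr35, Lrmda, Scn3b, Zbtb7c and Plcd4 were the others called, with responses of 0.51, 0.67, 0.32, 0.23 and 0.21. Svop, at 0.01 ± 0.06, and Neb, at 0.14 ± 0.13, were not called.

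Of the 30 p53 targets, 8 were called higher and 6 lower in synchronized cells, beside 18.6% and 18.4% of all genes, with a median of 0.03. Mdm2 had 0.26 ± 0.04 and Trp53inp1 0.25 ± 0.07, both called higher, while Cd80 was called lower at -0.13 ± 0.04 and Perp was not called at 0.05 ± 0.05. Ldha and Slc16a3 were called lower, with responses of -0.57 ± 0.06 and -0.86 ± 0.14, as were Lefty1 and Lefty2 with -0.92 ± 0.12 and -0.56 ± 0.07. The response at 3, 4 and 5 h of release less that at 0, 1 and 2 h was called in 0 genes in edgeR (0%), with 1906 at an unadjusted p under 0.05 (10.7%), and in 1276 without the filter on low counts. Time after 4HT and time of release cannot be told apart in that contrast.

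After OCT4 loss (doxycycline, DOX, against water in OCT4-tetOff cells, 2 libraries per group), 6531 of 17713 genes were called at 24 h (36.9%). Of 70 tested genes among those called higher at 24 h of FOXD3 loss, 18 were called higher and 15 lower at 24 h of OCT4 loss, beside 18.1% and 18.7% of all genes. Of the 15 called lower, 11 were called lower and 2 higher. Mobp had a response of 1.73 and Ttn of -3.91 at 24 h of OCT4 loss, both called. Prmt8, lower after FOXD3 loss, was called higher after OCT4 loss, at 0.79.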

How the data were processed

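The authors deposited whole-number counts per gene, not normalized. The submitters' processing notes name STAR, featureCounts and the build mm10, with versions, strand setting and treatment of multiple matches not given in the sources used here. Stated gene lengths span the whole interval in all 54752 genes, so introns are counted, and antisense or overlapping genes and near-identical copies are uncertain. Each table was fitted on its own with the quasi-likelihood test of edgeR 4.0.16, run in R 4.3.3 (TMM factors, filterByExpr with a minimum count of 10, one mean per group; for synchronized cells one 4HT effect with release time as a covariate). Cycling contrasts came from 1 fit of 16 libraries, with calls at p under 0.05 after Benjamini-Hochberg adjustment over all genes tested. An SE is the log2 fold change over the square root of F. Intervals and the floor of 3 counts cover counting or replicate error only. The script was tested on simulated data. CPM are TMM-scaled, except marker sums, which are of total counts.

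Groups, replicates and times were taken from the sample titles. Named genes were Foxd3, the 12 smallest p of the difference, the 8 largest differences of each class and direction (24 h responses for the full class) and the list members with the smallest p, with a mean log2 CPM of at least 1, no provisional symbol and arms that did not overlap (lists: up to 4 members); genes outside this rule were chosen after their values were seen. Members and lists were chosen with earlier results of these data known. Promoters came from RefSeq. The alternatives were DESeq2 1.42.0, RLE factors, total counts with and without Gm26917 and Gm42418, a length correction, no filter, the 8 libraries alone, a replicate block, and each library left out in turn; the share of Gm26917 and Gm42418 as a covariate was added after seeing the data.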

Additional observations from a re-analysis of the deposited data

How the results depend on the processing

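The 0 calls for the difference held with RLE factors, both total-count scalings, the 8 libraries alone and the replicate block, and became 12 with DESeq2, 30 with the length trend removed, 77 without the filter and 7 with the covariate; leaving out a library gave 0 to 681. Calls at 32 h became 1091 (total counts outside Gm26917 and Gm42418), 3026 (length) and 865 (8 libraries), and 597 to 4370 leaving out a library. Calls at 24 h became 46, 326 and 6 in the same order, 285 without the filter, 345 with the covariate and 155 with DESeq2, and 2 to 226. The 4HT arm had 1267 (8 libraries) and 599 (covariate), and 388 to 5629; the EtOH arm 2634 (length), 1620 (no filter), 122 (8 libraries) and 1881 (covariate), and 73 to 4647. Total calls not given here stayed within 1.5 times, but their split moved: higher and lower calls were 77 and 7 at 24 h with total counts, 212 and 114 at 24 h and 1173 and 1853 at 32 h with the length trend removed, and 157 and 742 in the EtOH arm with total counts outside Gm26917 and Gm42418. The growing, grown-from-below, new and full classes held 21, 5, 4 and 165 genes (length), 26, 19, 32 and 94 (no filter), 6, 1, 0 and 154 (covariate), and 8, 3, 1 and 58 (DESeq2); the full class held 12 with total counts, 14 outside Gm26917 and Gm42418, 1 with the 8 libraries and 15 with the replicate block. Leaving out a library gave 0 to 35, 0 to 62, 0 to 570 and 0 to 109, 0 to 1 shrunken and 591 to 3631 unresolved genes. Unresolved genes numbered 2851 (length), 864 (8 libraries) and 1077 (outside Gm26917 and Gm42418). List members called for the difference numbered 6 (length), 25 (no filter), 2 (covariate) and 4 (DESeq2), and 0 to 71.

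Median differences kept their sign in every setting run. With total counts they were 0.31 (p53 targets), 0.67 (two-cell-like), 0.26 (primitive endoderm), -0.15 (glycolysis), -0.0711 (nodal), -0.0711 (naive) and -0.0730 (replication). With the length trend removed they were 0.69 (two-cell-like), 0.0501 (primitive endoderm) and -0.50 (histones). With the covariate they were 0.29 (p53 targets), -0.51 (histones), -0.17 (ribosomal proteins), -0.0333 (nodal) and -0.0873 (naive). Leaving out a library gave 0.084 to 0.281 (p53 targets), 0.392 to 0.652 (two-cell-like), 0.073 to 0.145 (primitive endoderm), 0.111 to 0.495 (germline), -0.359 to -0.244 (glycolysis), -0.825 to -0.567 (histones), -0.497 to -0.192 (ribosomal proteins), -0.387 to -0.069 (nodal), -0.328 to -0.119 (naive) and -0.291 to -0.144 (replication). In synchronized cells total counts gave 20 and 138 of the genes called higher at 24 h and at 32 h only, leaving out a replicate gave 24 to 25 and 175 to 199 of these and 7 to 12 and 204 to 223 of those called lower, and late less early response had 1276 calls without the filter. After OCT4 loss the count of 18 ranged from 14 to 19. Late less early was not run without a replicate: one mean per group then leaves no residual degrees of freedom, and a smaller model was not tried.

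Among named genes the difference of Foxd3 turned positive, at 0.23 with the covariate and 0.0661 without EtOH replicate 2 of 32 h. It was 0.18 without 4HT replicate 2 of 32 h, and ranged from -0.60 to 0.18 over the libraries left out. No other difference followed this way changed sign, but those genes were chosen for the size or p of the same values. For named genes of the full class only the 24 h response was followed, and its sign held. Genes named only as list members were not followed singly. Whether the replicate number is a pairing could not be settled. Replicate differences correlated at 0.35 to 0.61 among EtOH of 32 h, 4HT of 24 h and EtOH of 24 h. Their correlations with 4HT of 32 h were -0.25 to -0.15. The block gave 0 calls for the difference, 62 at 24 h and 1555 at 32 h. The cause of these shifts was not tested. Depth was 21827951 counts or more with 2 libraries per group, and its part in the number of calls was not tested.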

Other observations

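Elobl, with an unadjusted p of 0.0133, was the single gene called at 24 h whose difference went against its response at that threshold: it had 0.623 and 0.465 CPM in 4HT libraries at 32 h and 0.597 and 0.580 in EtOH libraries at 32 h, against 0.628 and 0.486 in 4HT libraries and 1.39 and 1.47 in EtOH libraries at 24 h. The arms overlapped at 32 h only, and the EtOH libraries of 24 h were the 2 high ones. Sp9 had 1.83 and 2.01 CPM in 4HT libraries at 32 h and 0.964 and 1.47 in EtOH libraries at 32 h, against 2.76 and 2.39 in 4HT libraries and 0.645 and 1.37 in EtOH libraries at 24 h.

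Ier2, an immediate early gene, was called lower at 32 h, with 41.7 and 42.5 CPM in 4HT libraries and 58.9 and 96.1 in EtOH libraries; at 24 h it had 72.3 and 75.7 CPM in 4HT libraries and 71.6 and 79.2 in EtOH libraries, with overlap. Its difference was -0.86 ± 0.24. Axin2, a feedback target of WNT signalling, had a response of -0.45 at 32 h, called in edgeR, and of -0.03 at 24 h. Of 29 genes of the integrated stress response, 10 were called lower and 1 higher at 32 h (34.5% and 3.45%, with 4.59% and 4.88% of all genes), and 1 lower at 24 h (Aldh18a1).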
